A study of Sus scrofa with 6 samples.

Results

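The genes described here encode the proteasome and its regulators in pig cells. They were taken as every row of the expression table whose gene symbol begins with PSM, followed by a letter from A to G and a number, leaving out PSMB8 and PSMB9. This gave 34 of the 18007 genes listed. They comprise 5 alpha-ring genes, 4 structural and 2 catalytic beta genes, PSMB10, 6 ATPases and 2 other genes of the base, 7 lid genes, 2 base chaperones, 3 activators, 1 inhibitor and 1 core chaperone. Although the set is meant to hold constitutive subunits, PSMB10 is a subunit of the immunoproteasome and is kept because the naming rule takes it. A further 9 genes of the family are listed in the table by identifier only (PSMA1, PSMA2, PSMB5, PSMD4, PSMD8, PSMD9, PSME2, PSMG2 and PSMG4). Their values are given beside the 34 where they complete a part of the particle, and they enter no count of members.

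The proteasome is the protease that degrades proteins tagged with ubiquitin. Its core particle is a stack of rings in which alpha subunits guard the entrance and beta subunits line the chamber, some of them catalytic. A regulatory particle caps the core. The base of that cap holds a ring of ATPases that unfold substrates, and its lid removes ubiquitin. Other caps (the activators), an inhibitor and dedicated assembly chaperones complete the system. Pluripotent cells are known for high proteasome activity, and cells are known to raise subunit genes together through the transcription factor NFE2L1 when proteasome activity drops.

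RNA was sequenced from 3 lines of porcine embryonic fibroblasts (PEF5, PEF7 and PEF8) and from the induced pluripotent lines made from them (ips5, ips7 and ips8 in the labels, here piPSC5, piPSC7 and piPSC8), with 1 library per line. The fibroblasts came from ear tips of fetuses at embryonic day 90. The fetuses shared a Longwhite boar (Large White in the paper) and a Meishan sow as parents. Each piPSC line carried lentiviral Oct4, Sox2, Klf4 and cMyc under a doxycycline-inducible promoter and grew on mouse feeder cells, whose fragments cannot be told apart from pig fragments in a table of values per gene. The comparison asks how the levels of proteasome transcripts in fibroblasts differ from those in their reprogrammed counterparts. Levels are given as fragments divided by gene length in kilobases and by the depth of the library (FPKM).

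The libraries held from 11010629 to 17836510 fragments, of which the 34 genes took from 0.405% to 0.507%. Apart from PSME1, no member had fewer than 205 fragments in any library. The 3 lines are described by the study as male, but the Y-linked genes DDX3Y, EIF1AY and KDM5D had fragments in both libraries of line 8 and 0 fragments in lines 5 and 7, so results that change without line 8 are given with and without it. Of the fibroblast markers, 10 of 10 were lower in piPSCs, with a summed level of 4492 to 6456 FPKM in PEFs against 131 to 223 in piPSCs. Of 9 pluripotency markers listed, 7 were found, without POU5F1 and LIN28A. Only 2 of them were tested in limma, and 0 passed. SOX2 (2.49 to 3.01 FPKM in piPSC5 and piPSC7, 0.129 in piPSC8) and LIN28B (0.281 to 8.90 FPKM) were detected in piPSCs. Whether SOX2 fragments came from the lentivirus was not tested. NANOG, SALL4, ESRRB, EPCAM and CDH1 stayed at or below 0.113 FPKM in every piPSC library. All 8 proliferation markers were higher in piPSCs, and their summed level was 163 FPKM in PEF5 and 41.2 and 54.2 in the other PEFs, against 412 to 438 in piPSCs. Markers of haematopoietic, endothelial, keratinocyte and cartilage cells summed to at most 22.8, 2.59, 3.85 and 4.54 FPKM in any library. The part of these differences in the results on the proteasome was not tested. In such bulk libraries, fewer cells of a type and less RNA per cell cannot be told apart.

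The stretches around the genes' starts are described first, since 16 of the 34 share 1 short motif there. All 34 matched a RefSeq gene on Sscrofa11.1, and the window from 250 bases before to 50 bases after each RefSeq start was searched on both strands. The letters CCGGAAG, the core bound by ETS-family factors, were found in 16 of 34 windows (47.1%), beside 13.0% of the 13894 windows of all genes that could be searched. With the gene starts of the deposited table in place of those of RefSeq, they were found in 9 windows (26.5%), beside 11.7% of all. In 9 genes at least 1 match lay wholly before the RefSeq start, and the share of all genes with such a match was not counted. The 12 matches before the start are printed below with 11 bases on either side. The motif is in capitals (CTTCCGG where it is read on the other strand), each sequence runs 5′ to 3′ on the strand of its gene, and sequences are those of the RefSeq assembly.
PSMB1, plus strand, chr1:23776-23804: cgccacggaagCCGGAAGtggcccgactt
PSMB1, plus strand, chr1:23791-23819: aagtggcccgaCTTCCGGtcggccgccat
PSMB3, minus strand, chr12:23357650-23357678: gccaaagtgtcCCGGAAGggtcggcctct
PSMB7, minus strand, chr1:265235421-265235449: cgccggcggcgCCGGAAGtactgggctct
PSMB7, minus strand, chr1:265235380-265235408: ccgcccccgacCCGGAAGtaccttttcag
PSMC2, plus strand, chr9:103362646-103362674: atccagctttaCTTCCGGtggggaaggga
PSMC5, minus strand, chr12:15106425-15106453: gatgtttgcacCCGGAAGtaatattactt
PSMC6, plus strand, chr1:182329044-182329072: gcatagaagttCCGGAAGaggagtgcaga
PSME4, plus strand, chr3:87231466-87231494: cccgccccgccCCGGAAGtgacttgaggc
PSMF1, minus strand, chr17:34164726-34164754: cccggcaggcaCTTCCGGcggccacgccc
PSMG3, minus strand, chr3:1054799-1054827: ccccggcgcgaCCGGAAGccctgcgggct
PSMG3, minus strand, chr3:1054778-1054806: tgcgggctgcaCTTCCGGcgggggccgca

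The full 250 bases before the start are printed for PSMG3, the core chaperone with the largest rise among the members, and for PSME3, an activator that rose with no match. The first holds 2 matches and the second none.
PSMG3, minus strand, chr3:1054717-1054966: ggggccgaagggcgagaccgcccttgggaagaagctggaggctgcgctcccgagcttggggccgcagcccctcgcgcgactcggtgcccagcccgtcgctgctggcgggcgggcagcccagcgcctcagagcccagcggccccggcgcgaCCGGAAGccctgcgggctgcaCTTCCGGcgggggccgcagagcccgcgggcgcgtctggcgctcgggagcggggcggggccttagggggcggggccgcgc
PSME3, minus strand, chr12:20035866-20036115: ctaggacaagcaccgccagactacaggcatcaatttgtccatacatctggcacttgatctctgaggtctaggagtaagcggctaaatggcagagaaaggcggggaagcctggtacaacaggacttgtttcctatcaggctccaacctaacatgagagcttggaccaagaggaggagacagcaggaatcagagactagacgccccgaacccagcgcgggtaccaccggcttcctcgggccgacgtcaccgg

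The other 3 motifs searched differed less from all genes. TGACNNNGC, the core of the element to which NFE2L1 and its relatives bind, was found in 5 windows (PSMB6, PSMB7, PSMC5, PSMD14 and PSME4; 14.7%, beside 12.7% of all), and with the deposited gene starts in 7 (20.6%, beside 12.7%). GGGCGG was found in 19 (55.9%, beside 59.6%) and CCAAT in 11 (32.4%, beside 34.7%), and with the deposited starts in 16 (47.1%, beside 55.4%) and 10 (29.4%, beside 33.7%). None of the 4 motifs contains another, matches were counted on either strand, and a match is a description of letters, not a binding site.

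Few proteasome transcripts differed by 2-fold between PEFs and piPSCs. Of the 34 genes, 33 had a mean level of at least 0.5 FPKM and were tested, and PSME1 was not. At an adjusted p under 0.05 in limma and at least a 2-fold change, 1 of the 33 members was called (PSMG3, higher in piPSCs), beside 36.8% of all 12428 genes tested, and 0 members were called lower, beside 16.7% of all. The tested members ranged from -0.38 to 1.19 in log2 fold change (piPSC against PEF). Their median absolute log2 fold change was 0.33, beside 0.84 over all tested genes, and their median signed value was 0.27, beside 0.20. The 95% interval of the fold change lay within 2-fold in either direction for 27 of the 33 members, beside 24.6% of all genes.

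**Figure D1:**
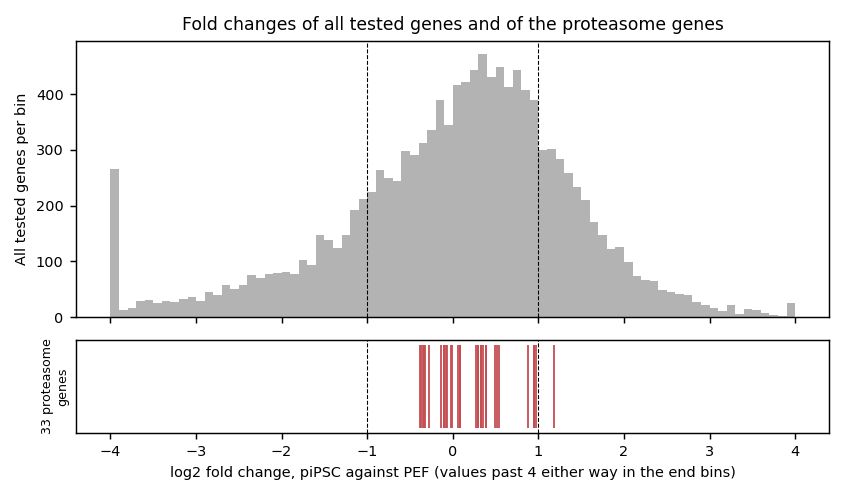
Histogram of the log2 fold change (piPSC against PEF, x axis) of all 12428 tested genes (upper panel, genes per bin) and the same values for the 33 tested proteasome genes (lower panel, 1 line per gene). Dashed lines mark 2-fold, and the proteasome genes lie between -0.38 and 1.19.

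Smaller changes were seen in more of them. At an adjusted p under 0.05 and any size, 8 members differed, beside 51.7% of all genes. All 8 were higher in piPSCs, beside 30.3% of all, and 0 were lower, beside 21.5%. The 8 were PSMG3, PSME3, PSMA7, PSMB10, PSMD10, PSMD11, PSMB6 and PSMD13. At an unadjusted p under 0.05, 9 members were higher and 1 was lower (PSMC3), and limma's voom on the recovered fragments also gave 8 higher (beside 30.2% of all genes) and 0 lower at an adjusted p under 0.05. The first 5 of the 8 passed in all 16 alternative fits. The other 3 did not pass once each library was rescaled, either to its median ratio with the other libraries or to a common sum of FPKM. Both rescalings moved the median of all genes, from 0.20 as deposited to -0.01 and -0.06, and the median of the members to 0.01 and -0.04. Under each of them 5 members were higher (beside 22.8% of all genes with the median ratio and 21.1% with the sum) and 4 were lower (beside 26.2% and 27.2%) at an adjusted p under 0.05. The 4 were PSMB1, PSMC2, PSMC3 and PSMC4. A shift common to all genes cannot be told apart from the scaling of the libraries. Without line 8, 5 members were higher, beside 23.6% of all genes.

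**Figure D2:**
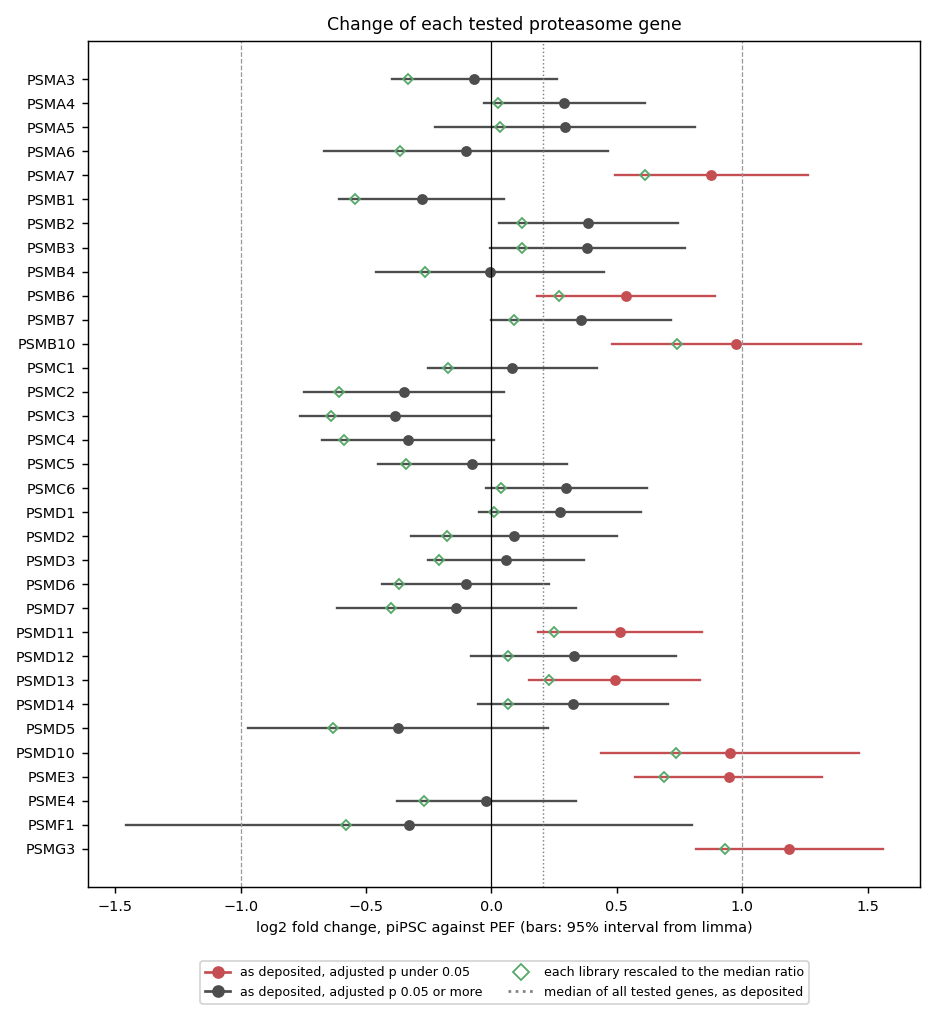
The log2 fold change (piPSC against PEF, x axis) of the 33 tested genes in the order of their parts, with 95% intervals from limma (3 against 3 libraries). Red marks an adjusted p under 0.05, open diamonds show the value after rescaling to the median ratio, and the dotted line is the median of all genes (0.20). PSMG3 is the only gene past 1 as deposited, and PSMC2, PSMC3 and PSMC4 are the lowest 3 ATPases.

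In the alpha ring, whose subunits gate and frame the core, PSMA7 rose and the other 4 members did not pass the test. Its level was 36.9, 39.4 and 34.1 FPKM in PEF5, PEF7 and PEF8, and 66.1, 80.5 and 59.6 in piPSC5, piPSC7 and piPSC8. The groups did not overlap, and the lowest piPSC library stood well above the highest PEF. The log2 fold change was 0.88 ± 0.16 (SE, adjusted p = 0.00508). LSM14B, a gene on the opposite strand that overlaps 26.0% of the span of PSMA7, went from 3.24 to 5.46 FPKM in PEFs to 8.62 to 12 in piPSCs, and how fragments in the shared stretch were assigned is not stated.

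PSMA4, another alpha subunit, was at 36.4, 38.8 and 39.5 FPKM in PEF5, PEF7 and PEF8 and at 42.7, 49.2 and 49.4 in piPSC5, piPSC7 and piPSC8, with no overlap (log2 fold change 0.29, 95% interval -0.03 to 0.61). PSMA5 was at 19.7, 18.1 and 25.6 FPKM in PEFs and 21.3, 32.7 and 24.8 in piPSCs. PSMA3, PSMA5 and PSMA6 overlapped between the groups, with log2 fold changes of -0.07, 0.29 and -0.10. Of the alpha genes listed by identifier, PSMA1 had a log2 fold change of 0.18 and PSMA2 of 0.00 to 2 decimals. Within each library, PSMA7 stood at 0.642 to 0.815 times the FPKM of PSMA3 in PEFs and at 1.36 to 1.57 times in piPSCs. This ratio does not depend on the scaling of libraries, although its size depends on the lengths behind the FPKM values.

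Among the catalytic genes, PSMB6, the caspase-like subunit, rose. It was at 32.7, 41.0 and 37.6 FPKM in PEF5, PEF7 and PEF8, and at 49.6, 57.2 and 55.6 in piPSC5, piPSC7 and piPSC8. All piPSC libraries were above all PEFs (log2 fold change 0.54 ± 0.15, adjusted p = 0.0227). After rescaling to the median ratio or the sum the change no longer passed the test. Without line 8, where 4 libraries remain, the log2 fold change was 0.53 (adjusted p = 0.0935), and without PEF5, piPSC7 or piPSC8 the adjusted p was 0.0574 to 0.0646. PSMB7, the trypsin-like subunit, had the highest FPKM of the members in every library, with 143, 162 and 133 in PEFs and 174, 208 and 180 in piPSCs. Its groups did not overlap either, but the log2 fold change of 0.36 did not pass (adjusted p = 0.0856). Of the 16 alternatives it passed in 1, quantile normalization (0.35, adjusted p = 0.0493). PSMB5, the chymotrypsin-like subunit, which is listed by identifier only, overlapped between the groups (20.6, 21.4 and 18.2 FPKM in PEFs, 20.04, 26.5 and 21.7 in piPSCs, log2 fold change 0.17, adjusted p = 0.419).

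PSMB10 takes the place of PSMB7 in the immunoproteasome, the form known from immune and interferon-treated cells. It was low, at 3.55, 4.61 and 5.96 FPKM in PEF5, PEF7 and PEF8, and at 9.88, 10.7 and 9.66 in piPSC5, piPSC7 and piPSC8. The piPSC libraries lay close together and above all PEFs (log2 fold change 0.98 ± 0.21, adjusted p = 0.00882), a rise of 2.14 times on the mean FPKM. Expressed as a share of the FPKM of PSMB7 in the same library, it went from 2.48% to 4.50% in PEFs to 5.13% to 5.68% in piPSCs. The size of this share depends on the lengths behind the FPKM values, 5501 bases for PSMB10 and 1075 for PSMB7. Per RefSeq transcript length, PSMB10 averaged 26.3 against 163 for PSMB7 in PEFs, and 56.3 against 209 in piPSCs. The other immunoproteasome genes did not share the pattern. PSMB8 ran from 4.004 to 11.3 FPKM in PEFs and from 1.78 to 23.8 in piPSCs, and PSMB9 from 2.16 to 10.8 and from 2.02 to 4.91, with the groups overlapping in both. Other rows share part of both spans. TAP2, TAP1 and PSMB9 cover 70.3% of that of PSMB8, and TAP1 and PSMB8 cover 24.2% of that of PSMB9. The effect of these overlaps on the values was not tested. PSKH1, on the opposite strand, overlaps 44.2% of the span of PSMB10 and had 6.12 to 8.62 FPKM in PEFs and 6.63 to 8.13 in piPSCs.

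None of the 4 structural beta genes passed the test as deposited. PSMB1 was lower in every piPSC library (109, 99.6 and 103 FPKM in PEFs against 78.6, 94.8 and 83.7), and PSMB2 was higher in every one (67.6, 66.6 and 73.4 against 81.2, 105 and 87.5). Neither group pair overlapped. Their log2 fold changes were -0.28 (adjusted p = 0.131) and 0.39 (adjusted p = 0.0679). After rescaling to the median ratio, PSMB1 passed as lower. With quantile normalization PSMB2 passed as higher (0.48, adjusted p = 0.0229). PSMB3 (21.8, 22.1 and 19.3 FPKM in PEFs, 23.5, 31.1 and 29.0 in piPSCs, log2 fold change 0.38, adjusted p = 0.0887) did not overlap, and PSMB4 (26.5 to 36.2 and 28.7 to 38.3) did.

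**Figure D3:**
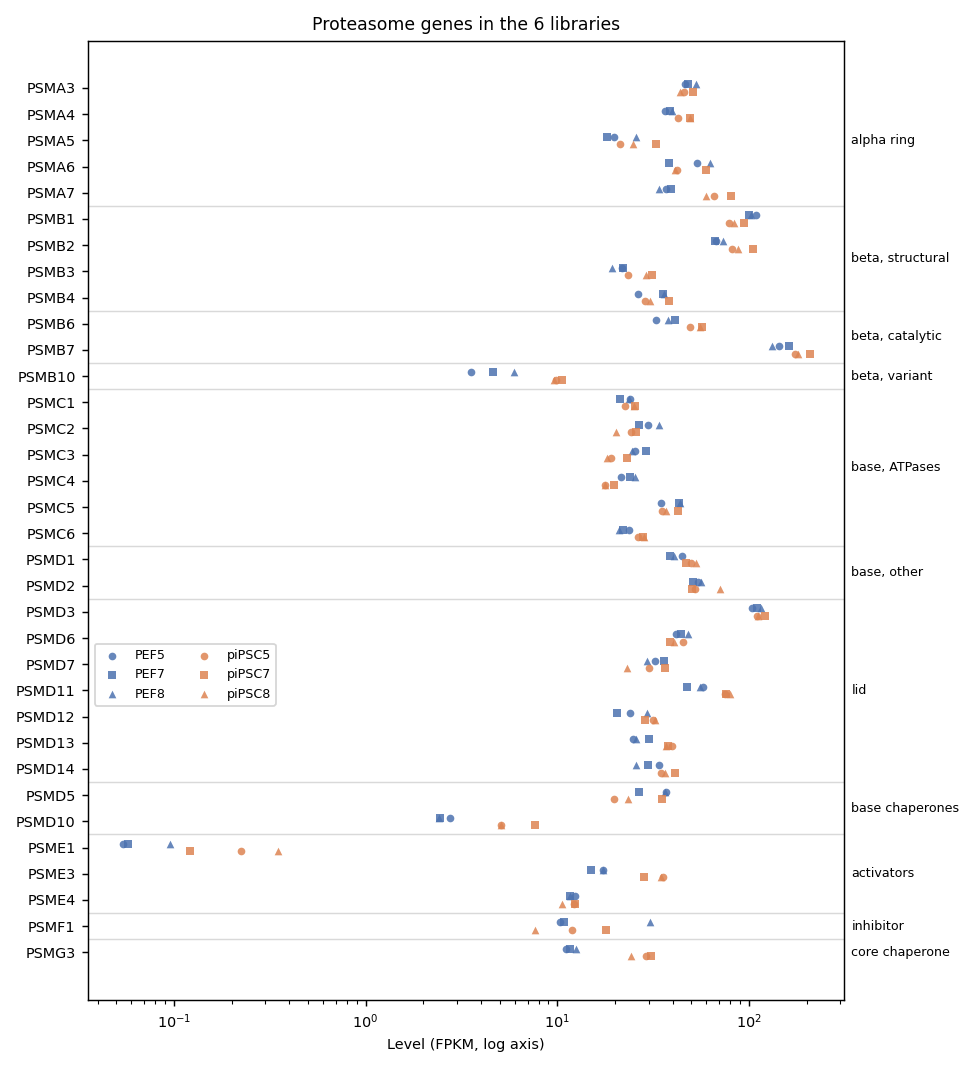
Level of the 34 genes (FPKM, log axis) in each of the 6 libraries, with PEFs in blue, piPSCs in orange and the line given by the marker. Genes are grouped by their part of the particle. Of the 33 tested members, PEFs and piPSCs do not overlap for 15 with piPSCs higher (beside 37.3% of all tested genes). The same holds for 4 with piPSCs lower (beside 26.8%). The 15 include PSMA7, PSMB6, PSMB10, PSMD10, PSMD11, PSMD13, PSME3 and PSMG3. PEF8 stands alone for PSMF1 (30.5 against 10.3 and 10.9 FPKM).

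The ATPases, which form the ring that unfolds substrates, had mostly lower values in piPSCs. Of the 6, 0 passed the test as deposited in either direction, and 4 had a log2 fold change below 0. The median of the 6 was -0.20, beside 0.27 for all members and 0.20 over all tested genes. PSMC3 was at 25.5, 29.1 and 24.6 FPKM in PEF5, PEF7 and PEF8 and at 19.0, 23.2 and 18.1 in piPSC5, piPSC7 and piPSC8. PSMC4 was at 21.6, 23.8 and 25.3 against 17.9, 19.9 and 17.8. PSMC2 was at 29.9, 26.6 and 33.9 against 24.4, 25.9 and 20.2. In each of these genes the groups did not overlap, and all 3 piPSC libraries were the lower ones, as in 26.8% of all tested genes. The log2 fold changes were -0.38, -0.33 and -0.35 (adjusted p = 0.0842, 0.0916 and 0.122). With the libraries rescaled to the median ratio all 3 passed as lower, at -0.64, -0.59 and -0.61, beside 26.2% of all genes. PSMC6 was higher in every piPSC library (23.7, 22.0 and 20.9 FPKM in PEFs, 26.3, 27.9 and 28.3 in piPSCs, adjusted p = 0.103). PSMC1 and PSMC5 overlapped between the groups, with log2 fold changes of 0.08 and -0.08.

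Sums over parts set the core beside the ATPases within each library. The 11 core genes (PSMB10 left out) summed to 594 to 616 FPKM in PEFs and 654 to 807 in piPSCs, a ratio of the means of 1.18. The 6 ATPases summed to 160 to 172 FPKM and 145 to 165, a ratio of 0.918. The core sum over the ATPase sum, which no rescaling of libraries can alter, was 3.72, 3.68 and 3.58 in PEF5, PEF7 and PEF8 and 4.50, 4.89 and 4.68 in piPSC5, piPSC7 and piPSC8. All piPSC libraries thus stood above all PEFs. The size of this ratio depends on the lengths behind the FPKM values, and genes with high FPKM weigh most. PSMB7 alone averaged 146 FPKM in PEFs and 187 in piPSCs. Of the 11 core genes, 2 were higher at an adjusted p under 0.05 in limma (beside 30.3% of all genes) and 4 had a log2 fold change below 0. The median of the core genes was 0.29, beside 0.20 over all genes. The sums are given with no test, since they are scores over chosen genes.

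Of the other genes of the base, PSMD1 and PSMD2, the scaffold subunits that receive substrates and shuttles, did not pass the test (log2 fold changes 0.27 and 0.09). PSMD1 did not overlap (38.7 to 44.9 FPKM in PEFs, 47.2 to 53.2 in piPSCs), and PSMD2 did, with piPSC8 the highest at 71.1 against 50.7 and 52.1 in the other piPSCs. PSMD4, the ubiquitin receptor, which is listed by identifier only, was lower in piPSCs, with 56.2, 50.6 and 59.3 FPKM in PEFs and 37.8, 39.0 and 27.9 in piPSCs. Its groups were well separated (log2 fold change -0.66 ± 0.18, adjusted p = 0.0193), and it was the one gene of the wider family that fell at this threshold. Without line 8 the log2 fold change was -0.46 (adjusted p = 0.0824), and without PEF5 or PEF8 alone it did not pass either (adjusted p = 0.0543 and 0.0532).

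In the lid, 2 of the 7 members rose, a share close to the 30.3% of all genes that were higher at this threshold, and 0 fell, beside 21.5%. PSMD11 was at 57.4, 47.5 and 55.9 FPKM in PEF5, PEF7 and PEF8, and at 75.2, 75.6 and 79.4 in piPSC5, piPSC7 and piPSC8 (log2 fold change 0.51 ± 0.14, adjusted p = 0.0198). PSMD13 was at 24.7, 30.3 and 25.8 in PEFs and 39.9, 37.8 and 36.8 in piPSCs (0.49 ± 0.14, adjusted p = 0.0267). Both are scaffold subunits of the lid, and in both the piPSC libraries were close together and above all PEFs. With the line as a block, since each piPSC line descends from 1 of the PEF lines, PSMD13 no longer passed (adjusted p = 0.0565, 0.0218 to 0.343 over its alternatives), which left 7 members higher, beside 28.0% of all genes. Without line 8 neither of them passed, at log2 fold changes of 0.52 for PSMD11 (adjusted p = 0.0754) and 0.49 for PSMD13 (adjusted p = 0.0947). Leaving out single libraries ended the call of PSMD11 without piPSC5 or piPSC8 (adjusted p = 0.0602 and 0.0557), and that of PSMD13 without any library but PEF7 (0.0501 to 0.0904).

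PSMD14, the enzyme that cleaves ubiquitin from substrates, did not pass (33.9, 29.8 and 25.8 FPKM in PEFs, 35.0, 41.1 and 36.5 in piPSCs, no overlap, adjusted p = 0.126). PSMD3 was the most abundant lid transcript by FPKM and did not pass (104 to 116 FPKM in PEFs, 110 to 122 in piPSCs, log2 fold change 0.06, 95% interval -0.25 to 0.37). PSMD6, PSMD7 and PSMD12 had log2 fold changes of -0.10, -0.14 and 0.33 with none passing. The level of PSMD12 was 24.0, 20.5 and 29.4 FPKM in PEFs and 31.6, 28.8 and 32.3 in piPSCs, where piPSC7 fell just short of PEF8. The 7 lid genes together summed to 318 to 330 FPKM in PEFs and 360 to 381 in piPSCs, a ratio of 1.15 as deposited and 0.950 after rescaling to the median ratio.

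The activators are alternative caps. PSME3, the nuclear activator that works without ubiquitin, rose. It was at 17.4, 15.1 and 17.3 FPKM in PEF5, PEF7 and PEF8, and at 35.8, 28.4 and 34.8 in piPSC5, piPSC7 and piPSC8. The lowest piPSC library was far above the highest PEF, and the log2 fold change of 0.95 ± 0.16 (adjusted p = 0.00345) is a rise of 1.99 times on the mean FPKM. AOC2, on the same strand, overlaps 22.2% of its span and stayed at or below 0.601 FPKM. PSME4, the large activator known from chromatin-linked degradation, was at 12.4, 11.7 and 11.6 FPKM in PEFs and 12.3, 12.4 and 10.6 in piPSCs and did not pass (log2 fold change -0.02, 95% interval -0.38 to 0.34).

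PSME1, a subunit of the interferon-inducible activator, was close to absent in the table. It had 2, 2 and 3 fragments in PEF5, PEF7 and PEF8 and 7, 3 and 8 in piPSC5, piPSC7 and piPSC8, below 0.4 FPKM throughout. Its partner PSME2, listed by identifier only, held 4, 5 and 10 fragments in the PEF libraries and 13, 8 and 8 in the piPSC libraries. Both genes lie under other rows. FITM1 and EMC9 together cover 99.98% of the span of PSME1, and RNF31 covers 100% of that of PSME2. Whether fragments of the pair were lost to these overlaps was not tested, so the low counts are no measure of the genes.

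PSMF1, the proteasome inhibitor, was the most variable member. It had 10.3, 10.9 and 30.5 FPKM in PEF5, PEF7 and PEF8, and 11.9, 17.99 and 7.70 in piPSC5, piPSC7 and piPSC8. PEF8 stood alone at the top and piPSC8 was the lowest library. The log2 fold change was -0.33 with a 95% interval of -1.46 to 0.80 (adjusted p = 0.581), and without line 8 it turned to 0.43 (adjusted p = 0.230, 0.230 to 0.945 over its alternatives). The interferon-responsive genes also peaked in PEF8, where 12 of them summed to 952 FPKM against 118 and 203 in the other PEFs and 83.7 to 95.01 in piPSCs. Of the 10 of these that were tested, 0 rose and 3 fell (IRF1, B2M and ISG15), beside 30.3% and 21.5% of all genes, and ISG15 did not pass without line 8 (log2 fold change -2.34 in place of -4.03, adjusted p = 0.110), with voom (0.276), with no filter (0.0785), or without any single library but PEF7 (0.0574 to 0.103). The part of this difference in PSMF1 was not tested.

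The assembly chaperones held the largest changes. PSMG3, which helps to build the alpha ring, was at 11.09, 11.6 and 12.5 FPKM in PEF5, PEF7 and PEF8, and at 29.2, 30.9 and 24.4 in piPSC5, piPSC7 and piPSC8. Every piPSC library was far above the highest PEF (log2 fold change 1.19 ± 0.16, 95% interval 0.82 to 1.56, adjusted p = 0.00149). No other row of the table overlaps PSMG3 (ENSSSCG00000007556, chromosome 3 of Sscrofa11.1 from 1052120 to 1054406). After rescaling to the median ratio the log2 fold change was 0.93, still passing on p but under 2-fold.

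PSMG4, with which PSMG3 pairs, rose as well and passed in all 16 alternative fits. It is listed by identifier only and was at 11.9, 12.3 and 9.72 FPKM in PEFs and 26.9, 43.4 and 29.4 in piPSCs (log2 fold change 1.45, adjusted p = 0.00252). PSMG2, which pairs with PSMG1, was at 9.82, 7.82 and 7.82 FPKM in PEFs and 12.6, 11.5 and 17.3 in piPSCs, with piPSC8 the highest (0.63, adjusted p = 0.0408). In both the groups did not overlap. The call of PSMG2 was lost in most alternatives. Without line 8 its log2 fold change was 0.42 (adjusted p = 0.182), after rescaling to the median ratio and the sum 0.38 and 0.35 (0.189 and 0.231), and with the line as a block the adjusted p was 0.0673. It also missed the threshold with no filter (0.0539), with quantile normalization (0.0654) and without any single library but piPSC7 (0.0530 to 0.111). PSMG1 has no row of its own and lies within that of BRWD1, so it was not analysed here. POMP, another chaperone of the core that carries no PSM symbol, did not pass (65.5 to 78.0 FPKM in PEFs, 64.4 to 99.3 in piPSCs, adjusted p = 0.527).

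Chaperones of the base were mixed. PSMD10, also known as gankyrin, was the lowest tested member in PEFs at 2.76, 2.44 and 2.43 FPKM, and stood at 5.09, 7.62 and 5.10 in piPSC5, piPSC7 and piPSC8. The groups were well apart (log2 fold change 0.95 ± 0.21, adjusted p = 0.0109). On the log2(FPKM + 1) scale used here the change of so low a gene is understated, and the ratio of the mean FPKM was 2.34. ATG4A, on the opposite strand, overlaps 38.5% of its span and was at 2.04 to 2.80 FPKM in PEFs and 1.70 to 1.94 in piPSCs.

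PSMD9, listed by identifier only, was at 12.8, 14.5 and 16.2 FPKM in PEFs and 21.8, 21.0 and 21.2 in piPSCs, with no overlap (log2 fold change 0.53, adjusted p = 0.0238). With the line as a block it did not pass (adjusted p = 0.0519), nor without line 8 (0.62, adjusted p = 0.0527), after rescaling to the median ratio or the sum (0.28 and 0.24, adjusted p = 0.183 and 0.249), or without PEF5, PEF7, piPSC5 or piPSC8 (0.0514 to 0.0774). PAAF1, another chaperone of the base, rose (6.32 to 8.14 against 15.5 to 18.2, log2 fold change 1.11, adjusted p = 0.00239). PSMD5, the remaining chaperone of the base, was at 37.1, 26.7 and 36.3 FPKM in PEFs and 19.7, 35.0 and 23.4 in piPSCs. Its lines disagreed, with piPSC7 above PEF7 and the other 2 piPSC lines below their own PEFs (log2 fold change -0.37, adjusted p = 0.247).

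Line by line, the median member was shifted about as far as the median gene, while far fewer of the members than of all genes changed by 2-fold. The median log2 ratio of a piPSC line to its own PEF line over the 33 tested members was 0.12 in line 5, 0.33 in line 7 and 0.13 in line 8, beside 0.21, 0.24 and 0.08 over all genes. At least a 2-fold ratio was seen in 2, 4 and 1 of the members, beside 40.5%, 42.1% and 47.6% of all genes. In all 3 pairs, 16 members were higher (beside 42.9% of all genes), 4 were lower (beside 31.6%) and 0 changed by at least 2-fold (beside 24.7%). Between the groups, 15 members did not overlap with piPSCs higher (beside 37.3%), and 4 with piPSCs lower (beside 26.8%).

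Genes that act with the proteasome are given by short lists. Of 11 partners listed, 9 were found and tested, 3 rose (beside 30.3% of all genes, a like share) and 0 fell (beside 21.5%) at an adjusted p under 0.05, with a median log2 fold change of 0.23, beside 0.20 over all genes. The 3 were PAAF1 and the deubiquitinases of the cap, UCHL5 (28.3 to 41.1 FPKM in PEFs, 58.8 to 85.7 in piPSCs, log2 fold change 1.15, adjusted p = 0.00541) and USP14 (7.47 to 11.01 against 13.7 to 15.7, 0.71, adjusted p = 0.0208). USP14 did not pass without line 8 (0.57, adjusted p = 0.116), after either rescaling (0.46 and 0.43, adjusted p = 0.0864 and 0.136), or without PEF7, PEF8, piPSC5 or piPSC8 (0.0544 to 0.0668). ECPAS, UBE3C, TXNL1, AKIRIN2 and ZFAND5 did not pass.

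Of 9 regulators and shuttles listed, 8 were found and tested, 3 rose (beside 30.3% of all genes) and 2 fell (beside 21.5%) at an adjusted p under 0.05, shares not far from those of all genes, with a median log2 fold change of 0.22. The 2 that fell were the transcription factors that induce proteasome genes. NFE2L1, which raises subunit genes when proteasome activity drops, was at 141, 166 and 122 FPKM in PEF5, PEF7 and PEF8 and at 18.7, 27.7 and 18.8 in piPSC5, piPSC7 and piPSC8 (log2 fold change -2.67, adjusted p = 0.000336). NFE2L2, its relative in the oxidative stress response, was at 108 to 122 FPKM and 28.7 to 40.4 (-1.76, adjusted p = 0.00053). Neither pair of groups came near to overlapping. By RefSeq starts, the 5 members with the motif TGACNNNGC had log2 fold changes of 0.54 (PSMB6), 0.36 (PSMB7), -0.08 (PSMC5), 0.33 (PSMD14) and -0.02 (PSME4). The motif was about as common in members (14.7%) as in all windows (12.7%). A link of these 5 members to NFE2L1 was not tested. NGLY1, which processes NFE2L1, did not pass (0.11, adjusted p = 0.707).

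The genes that rose encode shuttles, which carry tagged proteins to the proteasome. UBQLN4 was at 3.36 to 5.35 FPKM in PEFs and 17.8 to 24.3 in piPSCs (log2 fold change 2.04, adjusted p = 0.000728), UBQLN2 had a log2 fold change of 1.26 (adjusted p = 0.0136) and RAD23B of 0.50 (adjusted p = 0.0229). RAD23B did not pass with the line as a block (adjusted p = 0.0559), without line 8 (0.46, adjusted p = 0.107), after either rescaling (0.24 and 0.19, adjusted p = 0.245 and 0.306), or without PEF7, piPSC7 or piPSC8 (0.0578 to 0.0656). UBQLN1 did not pass (0.34, adjusted p = 0.156), nor did VCP, the segregase that extracts substrates (-0.21, adjusted p = 0.233). Among 3 ubiquitin genes tested of 5 listed, 1 rose (beside 30.3% of all genes, a like share) and 0 fell (beside 21.5%). Their median log2 fold change was 0.30, beside 0.20 over all genes. The activating enzyme UBA6 rose (2.17 to 3.51 FPKM in PEFs against 6.43 to 14.0 in piPSCs, log2 fold change 1.49, adjusted p = 0.00762), and UBB and UBA1 did not pass.

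**Figure D4:**
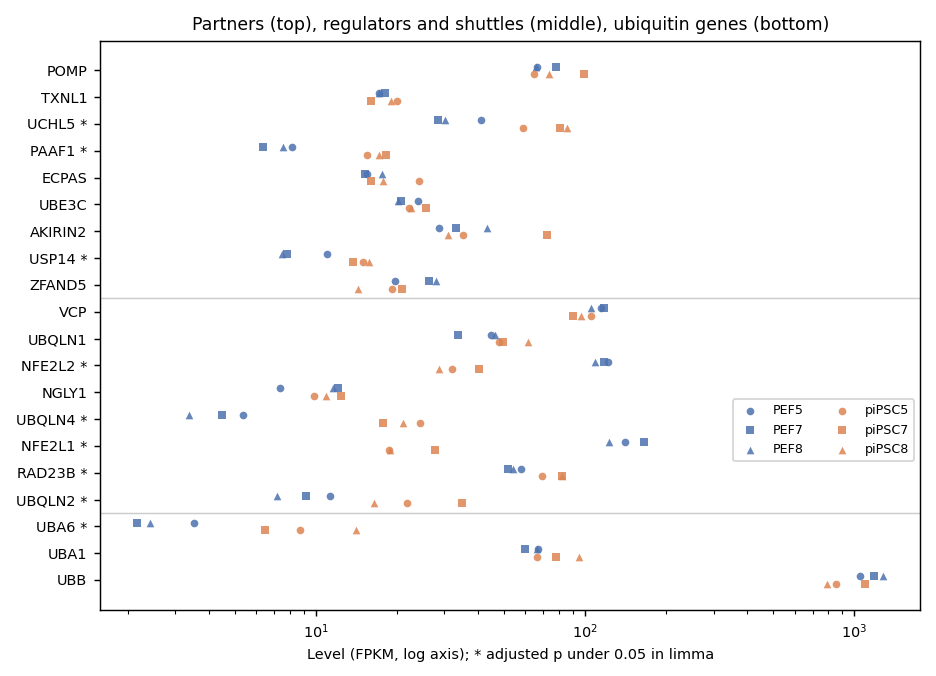
Level (FPKM, log axis) of the tested partners, regulators and shuttles, and ubiquitin genes in each library, with PEFs in blue, piPSCs in orange and the line given by the marker. An asterisk marks an adjusted p under 0.05 in limma. NFE2L1 and NFE2L2 lie far lower in piPSCs, UBQLN4 and UBQLN2 higher, and POMP and VCP overlap or nearly so.

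Comparing levels between subunits depends on the length used. The length behind the FPKM values was over 2 times the median RefSeq transcript of the gene for 22 of the 34 members, from 0.423 times for PSMD11 to 7.13 times for PSMB3. Over the 33 members other than PSME1, the mean FPKM was lower the longer that length (Spearman rho -0.60). For the level per RefSeq transcript length rho was -0.02. FPKM is itself divided by the length behind it and the RefSeq level is not, so this contrast is partly built in. These correlations are across genes that share libraries and are descriptions. By FPKM, PSMB7 was the highest member in both groups, at 146 ± 14.8 (SD, n = 3) in PEFs and 187 ± 17.9 in piPSCs. Per RefSeq length, PSMB4 was the highest in PEFs (195 on the same scale) and PSMA7 in piPSCs (345), and the neighbours PSMB4, PSMA6 and PSMA7 lay within 195 to 185 in PEFs. Fold changes of a gene do not depend on the length used, apart from the added 1 in log2(FPKM + 1).

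**Figure D5:**
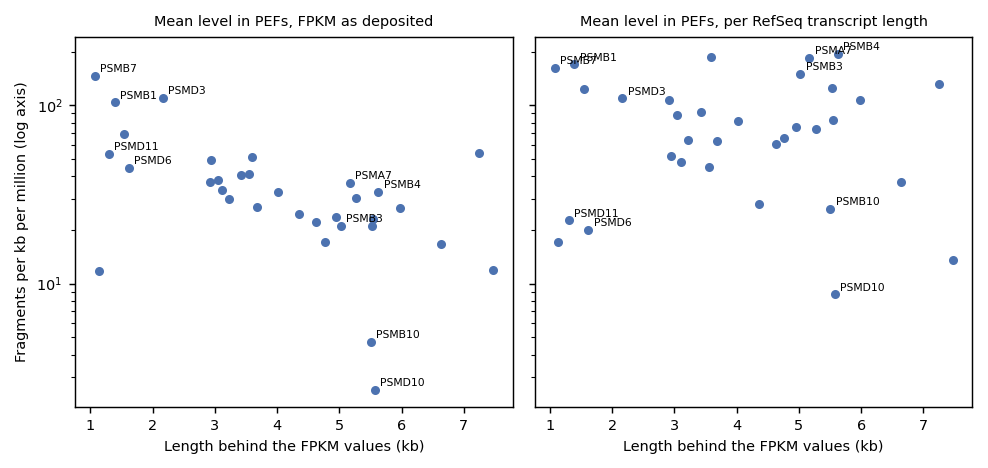
Mean level in PEFs of the 33 members other than PSME1 against the length behind the FPKM values (kb), as FPKM (left) and per RefSeq transcript length (right), both on a log axis on the FPKM scale. Spearman's rho is -0.60 on the left and -0.02 on the right. The FPKM on the left is itself divided by the length on the x axis.

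Rows that overlap were common, with 18 of the 34 members sharing part of their span with another row. PSMC5 lies wholly within the row of FTSJ3, which went from 8.60 to 11.02 FPKM in PEFs to 18.2 to 19.9 in piPSCs, while PSMC5 itself did not pass (34.9 to 43.7 against 35.4 to 42.7). The library kit does not mark strand, so fragments of genes on opposite strands cannot be told apart. Of the 8 members that rose, PSMG3, PSMB6, PSMD11 and PSMD13 have no overlapping row.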

How the data were processed

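Poly-A RNA was sequenced as paired 150-bp reads. The authors deposited FPKM values per gene, and the submitters' processing notes name HISAT2 2.1.0, Bowtie2 2.2.3, HTSeq 0.6.0 and the build Sscrofa11.1. The treatment of fragments shared by overlapping genes is not given in the sources used here. All values were whole multiples of 1 fragment (within 0.002), so fragments were recovered for 18007 genes (100%).

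Groups follow the sample titles. piPSCs were compared with PEFs by limma 3.58.1 in R 4.3.3 (lmFit, eBayes with trend) on log2(FPKM + 1), two-sided. The test covered 12428 genes whose FPKM averaged 0.5 or more, and p-values were adjusted over all of them (Benjamini-Hochberg). Calls needed both an adjusted p under 0.05 and a 2-fold change or more. The fit was tested on simulated data. With 1 library per line, p-values measure the spread between lines. With 3 libraries against 3, no permutation test can reach 0.05 and none was run.

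All 34 members are accounted for. Values per library are given for called, catalytic, activator, inhibitor and chaperone genes of the family and for the 10 other members with the largest change. Members and lists were chosen with earlier results of these data known. Identifier-only genes were named from an identifier table, or from RefSeq positions and the descriptions in the deposited table. Of 13159 symbols shared with RefSeq, 99.8% lay at overlapping positions.

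The lines are paired by descent, each piPSC line having come from the PEF line that shares its number. Deviations from group means correlated at 0.0921, 0.0946 and 0.0800 within lines and from -0.121 to 0.0553 between lines. Alternatives were a block for the line, a pseudocount of 0.1, quantile normalization, no filter, a filter at a mean FPKM of 1, rescaling to the median ratio or to a sum of 1e+06, no trend, voom on recovered fragments and leaving out each library. Leaving out line 8, and scanning from the deposited gene starts, were added after the data were seen. Sums and motif counts used Python 3.11.15, pandas 2.3.3, numpy 2.4.6 and scipy 1.17.1. Columns other than FPKM and annotation were not used. A pair of genes outside the family was left out of the lists and is not reported here.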

Additional observations from a re-analysis of the deposited data

How the results depend on the processing

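PSMG3, PSME3, PSMA7, PSMB10 and PSMD10 were higher at an adjusted p under 0.05 in all 16 alternatives. Members called at 2-fold or more numbered 1 as deposited, 3 with a pseudocount of 0.1, with voom and without line 8, 0 under both rescalings, and 1 to 3 on leaving out single libraries (3 without piPSC8). Members higher at any size numbered 8, then 5 under both rescalings and without line 8, and 5 to 8 on leaving out single libraries (5 without piPSC8). With quantile normalization PSMB2 and PSMB7 passed in limma as well (adjusted p = 0.0229 and 0.0493). Members lower at any size numbered 0, and 4 under both rescalings. A fit in which the lines formed a replicate block gave 1 call and 7 higher members, the loss being PSMD13. Of the other genes reported as passing, PSMG2, PSMD9, RAD23B and ISG15 (adjusted p = 0.0570) were also lost with it.

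With the libraries rescaled to the median ratio and to a common sum, in that order, the median log2 fold change of the members was 0.0097 and -0.043. The median ratio was -0.17 and -0.20 in line 5, -0.030 and 0.011 in line 7, and -0.0065 and -0.18 in line 8. The ratio of summed levels was 0.978 and 0.941 for the core, 0.762 and 0.734 for the ATPases, and 0.950 and 0.916 for the lid. Signs turned for PSMD3 (-0.21 and -0.26), PSMC1 (-0.17 and -0.23) and PSMD2 (-0.18 and -0.23), and under the sum alone for PSMA4 (-0.025), PSMA5 (-0.017), PSMD1 (-0.043) and PSMC6 (-0.013). By construction, rescaling shifts all genes of a library together.

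Without line 8, signs turned for PSMA6 (0.14), PSMF1 (0.43), PSME4 (0.030), PSMB4 (0.11), PSMC5 (0.0039), PSMD2 (-0.034) and PSMA3 (0.032). Leaving out single libraries gave log2 fold changes of both signs for PSMA6 (-0.29 to 0.050, above 0 without PEF8), PSMF1 (-0.61 to 0.15, above 0 without PEF8), PSME4 (-0.055 to 0.046, above 0 without PEF5 or piPSC8), PSMD7 (-0.29 to 0.027, above 0 without piPSC8), PSMB4 (-0.15 to 0.076, below 0 without PEF5 or piPSC7) and PSMD2 (-0.064 to 0.18, below 0 without piPSC8). None of these genes passed the test as deposited, and the cause was not tested.

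With 3 libraries against 3, members that did not pass had intervals reaching from -1.46 to 0.81 on the log2 scale. PSME1 had 8 fragments at most and the other members at least 205 in every library; the effect of depth on the calls was not tested.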
